A study of Mus musculus with 20 samples.

Results

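The 10 genes described here are those by which brown fat is usually recognised, Ucp1, Cidea, Kcnk3, Ppargc1a, Prdm16, Dio2, Elovl3, Cox8b, Cox7a1 and Cpt1b, and they are 10 of the 45706 genes counted. They were taken from a fixed list of names after earlier results on these tumors were known, and they were chosen by their counts in these same tumors, compared between genotypes. The difference between tumor genotypes is therefore given for them as a description, without a test.

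The samples comprised 8 mammary tumors and 12 cultures of mammary tumor cells, and gene counts per library ranged from 49725437 to 64291587 in tumors and from 33622831 to 40239762 in cells. All tumors were taken at 18 weeks of age from mice that carry the polyoma middle T oncogene (PyMT) under the MMTV promoter, which is active in mammary epithelium. In 4 of the mice Cre, driven by the same promoter, had deleted the gene for the lysosomal protease cathepsin D (Ctsd-/-), and 4 CTSD-competent mice, labelled wild type and with unrecombined Ctsd alleles per the methods of the study, were the controls. Cre was aimed at the epithelium, so adipocytes, vessels and other stroma of a Ctsd-/- tumor were meant to keep Ctsd. By ultrasound at this age, the study found smaller tumors in such mice than in controls. Sizes of the sequenced tumors are not given here, so tumor size and genotype cannot be told apart. The cultures were spontaneously immortalized PyMT tumor cells, Ctsd+/+ or Ctsd-/-, kept in medium with 1% fetal calf serum. The groups named 1% FCS had spent 10 days in it and those named 1% FCS LT had spent 12 weeks, and every one of the 4 groups had 3 replicates. Each genotype of cells was 1 line, so genotype and line cannot be told apart. The control tumors share 1 run code and the Ctsd-/- tumors share another. The paper does not describe these codes, and they are taken here as sequencing runs. So sequencing run and genotype cannot be told apart in tumors either. The study describes the replicates of the cells as independent experiments, so p-values in cells measure the spread between experiments on 1 line per genotype.

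Brown and beige adipocytes burn fatty acids to make heat. Noradrenaline from sympathetic nerves acts on the β3-adrenergic receptor, cAMP rises, lipolysis and transcription of the thermogenic genes follow, and uncoupling protein 1, the product of Ucp1, lets protons flow back across the inner mitochondrial membrane without making ATP. Mouse mammary glands grow in a fat pad of white adipocytes in which such cells can appear, and bulk tumor RNA holds whatever fat the piece contained. In bulk tissue, fewer cells of a type and less RNA per cell cannot be told apart.

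Sequence upstream of 3 of the genes is shown because cAMP is the signal that drives this program and because these 3 span what was seen in the tumors: Ucp1 had the highest fold difference between genotypes, Ppargc1a differed less, and Dio2 differed in the opposite direction. The RefSeq promoter table (GRCm38.p6) matched 6 of the 10 genes, and Kcnk3, Elovl3, Cpt1b and Cidea had no entry used here. Each line gives the 250 bases before the RefSeq start, 5′ to 3′ on the gene's strand. Capitals mark the cAMP response element half-site TGACG or its reverse complement CGTCA, the nuclear receptor half-site AGGTCA or TGACCT, and TATAAA or TTTATA, each searched on both strands.
Ucp1, chr8:83290098-83290347, plus strand: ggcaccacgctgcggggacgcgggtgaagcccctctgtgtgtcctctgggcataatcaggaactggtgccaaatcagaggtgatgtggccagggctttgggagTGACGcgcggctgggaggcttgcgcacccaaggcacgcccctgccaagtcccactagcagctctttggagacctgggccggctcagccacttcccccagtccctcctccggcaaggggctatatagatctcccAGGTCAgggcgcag
Ppargc1a, chr5:51567726-51567975, minus strand: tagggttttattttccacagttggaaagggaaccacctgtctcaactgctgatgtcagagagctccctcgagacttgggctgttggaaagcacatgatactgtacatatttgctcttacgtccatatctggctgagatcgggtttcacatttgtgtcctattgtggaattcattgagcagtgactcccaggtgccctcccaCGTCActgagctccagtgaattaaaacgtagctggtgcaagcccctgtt
Dio2, chr12:90739039-90739288, minus strand: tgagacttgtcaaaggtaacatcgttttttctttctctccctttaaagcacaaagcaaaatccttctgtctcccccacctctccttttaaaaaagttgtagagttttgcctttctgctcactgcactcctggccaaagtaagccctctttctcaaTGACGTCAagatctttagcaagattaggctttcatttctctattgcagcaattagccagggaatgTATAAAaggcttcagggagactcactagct
The Dio2 window held the full palindromic element TGACGTCA, which consists of overlapping half-sites on both strands, 95 to 88 bases before the start, and TATAAA 30 to 25 bases before it. The Ucp1 window held a half-site TGACG 147 to 143 bases and AGGTCA 14 to 9 bases before the start. The Ppargc1a window held a half-site in reverse orientation 49 to 45 bases before the start. The windows of Prdm16, Cox8b and Cox7a1 held none of these letters. Among 32851 promoter windows of the same length in the table, 1.55% held TGACGTCA, 17.8% held TGACG, 14% held AGGTCA and 12.4% held TATAAA, in either orientation. The RefSeq start of Dio2 lies upstream of the start of its GENCODE model, which spans chr12:90724552-90738438.

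The label of the tumors was checked on Ctsd itself (chr7), whose product is the deleted protease. Control tumors 1 to 4 had 1860, 2617, 1781 and 2532 CPM (read counts scaled to TMM-adjusted library size), and Ctsd-/- tumors 1 to 4 had 797, 360, 1295 and 1233 CPM. The groups did not overlap, and Ctsd was 1.25 lower on the log2 scale (SE 0.38, adjusted p = 0.463 with edgeR's quasi-likelihood test). In the same tumors the mean log2 CPM of 9 epithelial markers was 9.15 to 9.76 in controls and 9.07 to 9.24 in Ctsd-/- tumors. Fat was present in every library: Adipoq, the adipocyte hormone adiponectin, ranged from 24.0 to 231 CPM in controls and from 158 to 1080 CPM in Ctsd-/- tumors. Libraries differed most in skeletal muscle markers, with a mean log2 CPM of 5.21 in control tumor 4 and 3.52 in Ctsd-/- tumor 1 against −1.20 to 1.03 in the other 6 tumors.

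Of the 10 genes, 9 passed the filter on low counts in tumors. Of these, 7 had a higher and 2 a lower fitted level in Ctsd-/- tumors, and 50.1% of all genes tested had a higher one. Their median log2 fold change (FC) was 1.33, and that of all 18617 genes tested was 0.00. For 4 of the 9 genes, Ucp1, Kcnk3, Elovl3 and Ppargc1a, all Ctsd-/- tumors lay above all control tumors. Over all genes tested, 421 or 2.26% had that pattern, and 1.89% had the opposite one, which none of the 9 genes showed. The rule used this contrast, and nothing is read from the difference between those shares.

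**Figure D1:**
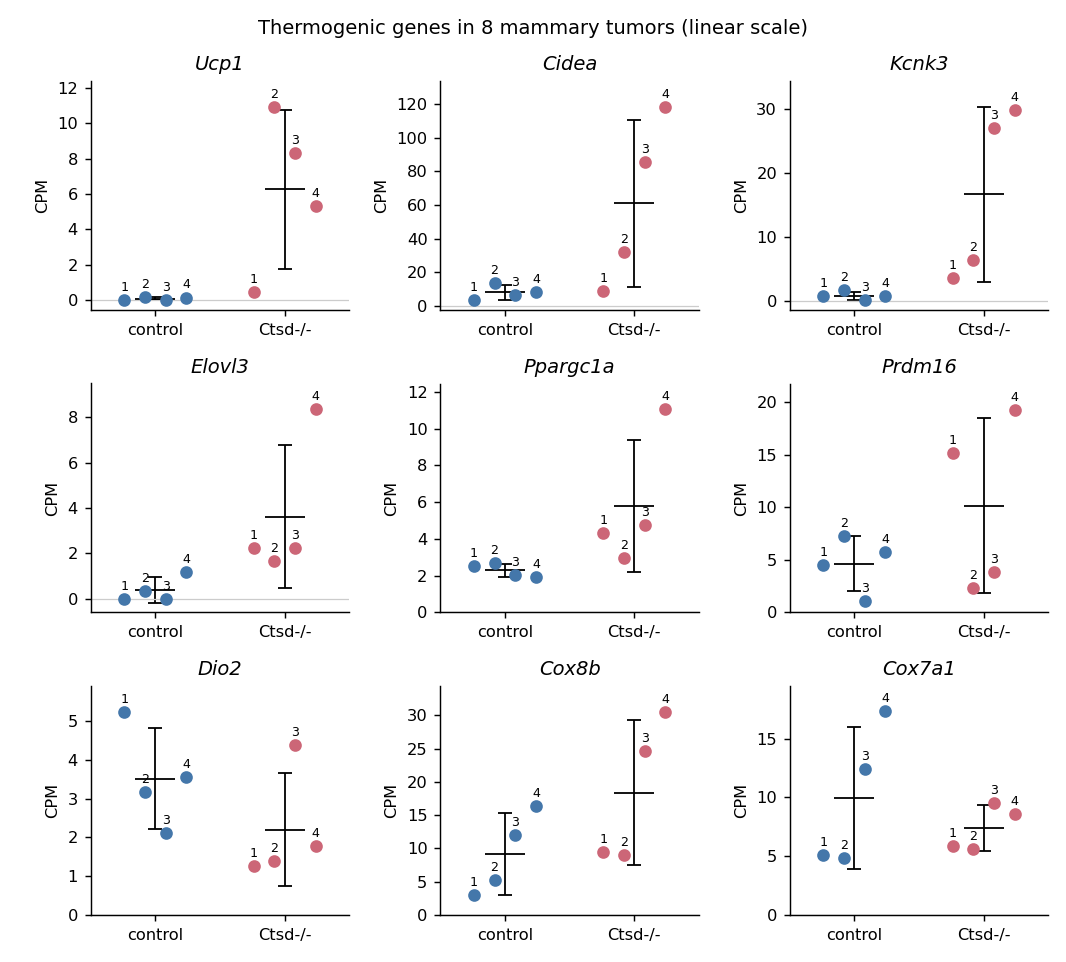
CPM of the 9 thermogenic genes that passed the filter in each of 4 control (blue) and 4 Ctsd-/- (red) tumors, on linear axes of different height; numbers beside points are tumor numbers, and black bars are the mean ± SD of 4 tumors. Ucp1, Kcnk3, Elovl3 and Ppargc1a separate the genotypes, Cidea, Prdm16 and Cox8b are higher on average but overlap, and Dio2 and Cox7a1 have the lower mean in Ctsd-/- tumors.

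Ucp1 (chr8:83290352-83298452, like all gene positions here from GENCODE M21 on GRCm38), the proton leak of brown fat mitochondria, was close to absent from control tumors, with 0, 12, 1 and 6 reads in tumors 1 to 4, or 0, 0.185, 0.0166 and 0.152 CPM. Ctsd-/- tumors 1 to 4 had 32, 710, 554 and 322 reads, or 0.486, 10.9, 8.30 and 5.34 CPM. Every Ctsd-/- tumor was above every control tumor, but Ctsd-/- tumor 1 stood closer to the controls than to the other 3. The means were 0.0885 ± 0.0939 and 6.26 ± 4.47 CPM (SD, n = 4 each), and the log2 FC was 6.17 (SE 1.14). A fold against so few control reads is uncertain in size.

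Cidea (chr18:67343604-67367785), a lipid droplet protein that is abundant in brown fat, was read in every tumor. Its CPM in control tumors 1 to 4 was 3.45, 13.8, 6.80 and 8.42, and in Ctsd-/- tumors 8.78, 31.9, 85.4 and 118. Ctsd-/- tumor 1 lay within the range of the controls, and the other 3 lay above it. The log2 FC was 2.91 (SE 0.71).

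Kcnk3 (chr5:30588170-30625271) encodes the potassium channel TASK-1, a known marker of brown fat. Control tumors had 0.694, 1.61, 0.0497 and 0.685 CPM, and Ctsd-/- tumors had 3.49, 6.35, 27.0 and 29.9 CPM. Tumors 3 and 4 of the Ctsd-/- group stood far above tumors 1 and 2, and all 4 stood above the controls. The log2 FC was 4.45 (SE 0.95).

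Elovl3 (chr19:46131897-46135694), an elongase of very long chain fatty acids that is induced in brown fat by cold, had 0 reads in control tumors 1 and 3 and 0.340 and 1.19 CPM in control tumors 2 and 4. Ctsd-/- tumors 1 to 4 had 2.22, 1.66, 2.25 and 8.36 CPM. All Ctsd-/- tumors were above the highest control, and tumor 4 stood apart from the other 3. The log2 FC was 3.29 (SE 1.26), and it was 5.54 with limma-voom and 5.13 without the 2 tumors highest in muscle markers. With 2 control tumors at 0, its size is poorly fixed.

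Ppargc1a (chr5:51454250-51567726) encodes the coactivator PGC-1α, which switches on mitochondrial genes. Its CPM was 2.52, 2.69, 2.02 and 1.93 in control tumors and 4.31, 2.98, 4.75 and 11.1 in Ctsd-/- tumors. The groups did not overlap, but Ctsd-/- tumor 2 exceeded control tumor 2 by little. The log2 FC was 1.33 (SE 0.41). Its relative Ppargc1b made up the larger part of the pair in every tumor: per kilobase of exon, Ppargc1a was 26.8% ± 5.55 of the sum of both in controls and 27.5% ± 4.13 in Ctsd-/- tumors (SD, n = 4 each).

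Prdm16 (chr4:154316125-154636873), a transcriptional regulator that sets brown adipocyte identity, did not separate the genotypes. Control tumors had 4.48, 7.30, 1.09 and 5.73 CPM, and Ctsd-/- tumors 15.2, 2.37, 3.86 and 19.2 CPM. Ctsd-/- tumors 1 and 4 were the highest of all 8, while tumors 2 and 3 were lower than 3 of the 4 controls. The log2 FC was 1.13 (SE 0.71). The order of tumors thus differed between the genes: Ctsd-/- tumor 2 had the highest Ucp1 of all tumors and the lowest Prdm16 of its group, and tumor 1 had the lowest Ucp1 of its group and the second highest Prdm16.

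Dio2 (chr12:90724552-90738438), the deiodinase that makes active thyroid hormone within brown adipocytes, was lower on average in Ctsd-/- tumors. Its CPM was 5.25, 3.16, 2.12 and 3.55 in controls and 1.26, 1.40, 4.37 and 1.78 in Ctsd-/- tumors. Tumors 1, 2 and 4 of the Ctsd-/- group were below every control, and tumor 3 was above 3 of the 4 controls. The log2 FC was −0.68 (SE 0.47).

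Cox8b (chr7:140898945-140900446) and Cox7a1 (chr7:30184144-30186078) encode the forms of cytochrome c oxidase subunits used in heart, muscle and brown fat, and so are not specific to fat. Cox8b had 2.97, 5.20, 12.0 and 16.4 CPM in control tumors and 9.48, 8.99, 24.6 and 30.5 CPM in Ctsd-/- tumors, a log2 FC of 1.01 (SE 0.57). Cox7a1 had 5.11, 4.85, 12.5 and 17.4 CPM in controls and 5.85, 5.60, 9.53 and 8.56 CPM in Ctsd-/- tumors, a log2 FC of −0.43 (SE 0.43). Both were highest among controls in tumors 3 and 4, of which tumor 4 also had the highest muscle markers of all tumors. Control tumor 3 had a mean log2 CPM of muscle markers of only −0.07. The widespread form Cox7a2 had 202, 196, 449 and 652 CPM per kilobase of exon in control tumors 1 to 4, and Cox8a had 397, 456, 428 and 677. The cause of these differences between control tumors was not tested. Without the 2 tumors highest in muscle markers, a setting chosen after seeing the data, the log2 FC was 1.66 for Cox8b and 0.07 for Cox7a1. With the muscle marker level as a covariate the log2 FC of Cox7a1 was −0.28 (SE 0.37), so the sign for Cox7a1 turned under the first setting and not under the second. Per kilobase of exon, the ubiquitous forms prevailed throughout: Cox8b was 4.65% ± 2.48 of the sum of Cox8b and Cox8a in controls and 7.91% ± 3.37 in Ctsd-/- tumors, and Cox7a1 was 4.65% ± 0.232 and 5.44% ± 1.91 of the sum of Cox7a1 and Cox7a2.

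Cpt1b (chr15:89416405-89425863), the muscle and brown fat form of the carnitine palmitoyltransferase that admits fatty acids to mitochondria, had 0 reads in each control tumor and 0, 2, 0 and 1 reads in Ctsd-/- tumors 1 to 4. It did not pass the filter, and no fold is given. In the GENCODE M21 annotation 81.4% of its exon bases are shared with a read-through gene on the same strand, Gm44502. That gene is not among the identifiers counted here, and whether the overlap affects the counts of Cpt1b was not tested. Control tumor 4 had 148 CPM of the muscle creatine kinase gene Ckm and 0 reads of Cpt1b. Its paralog Cpt1a, the widespread form, was read in every tumor, at 35.2 ± 13.5 CPM in controls and 63.7 ± 15.7 CPM in Ctsd-/- tumors (SD, n = 4 each).

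Per kilobase of exon, Cidea, Cox8b and Cox7a1 were the most abundant of the 10 genes in Ctsd-/- tumors, with means of 54.7, 51.1 and 13.8 CPM per kilobase, and Kcnk3 and Ucp1 followed with 4.20 and 3.83. Elovl3, Prdm16, Ppargc1a and Dio2 came last with 1.83, 1.09, 0.877 and 0.379. Cox7a1 lay below Cox8b and above Kcnk3 in every Ctsd-/- tumor, and the other neighbours in this order overlapped in their ranges over the 4 tumors. In the same unit the widespread uncoupling protein Ucp2 ranged from 276 to 410 in Ctsd-/- tumors, so that Ucp1 was at most 1.85% of the sum of Ucp1 and Ucp2. Ucp3, the form of muscle and brown fat, was closer to Ucp1: Ucp1 was 39.7, 83.1, 52.7 and 29.8% of the sum of both in Ctsd-/- tumors 1 to 4, and 0, 17.8, 3.92 and 11.1% in control tumors.

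**Figure D2:**
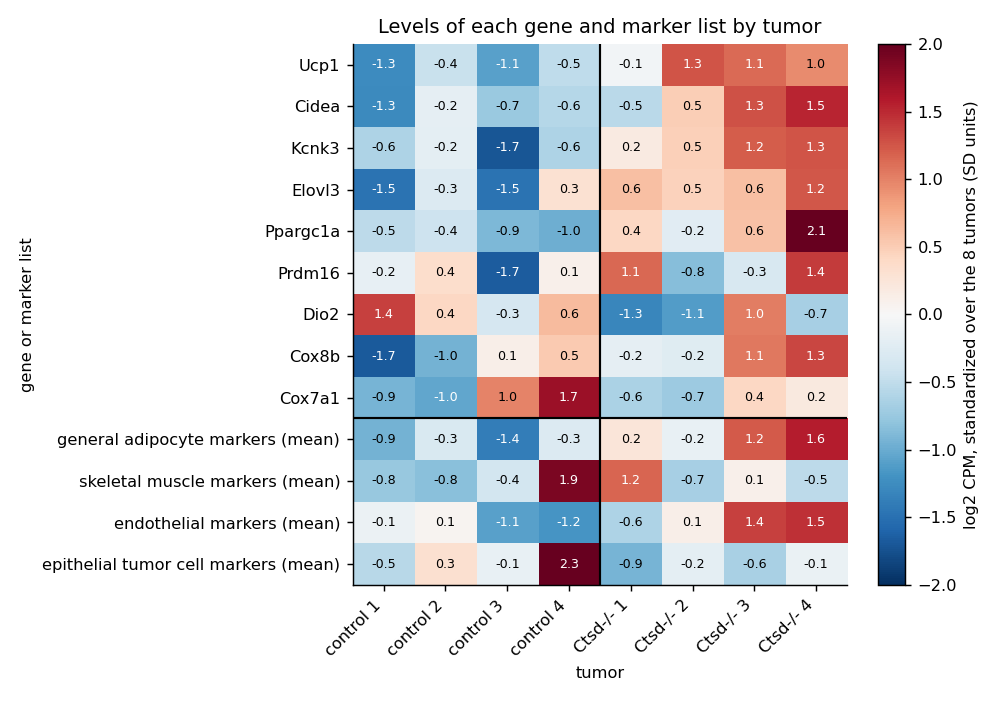
Log2 CPM (prior count 2) of each thermogenic gene and the mean log2 CPM of 4 marker lists in each of the 8 tumors, standardized over the tumors, with red above and blue below the mean. Ctsd-/- tumors 3 and 4 are high for most thermogenic genes and for the adipocyte and endothelial markers, Ucp1 is also high in Ctsd-/- tumor 2, and the muscle markers stand out in control tumor 4 and Ctsd-/- tumor 1.

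General adipocyte markers moved with genotype in these tumors. Of 22 genes listed as general adipocyte markers, among them Lep, 22 had an unadjusted p under 0.1 in edgeR's test and lay higher in Ctsd-/- tumors. How evenly white and brown adipocytes share these genes was not tested. Their median log2 FC was 2.70 against 0.00 over all genes. At that threshold 8.44% of all genes tested were higher and 8.27% lower, and 1 of 18617, or 0.00537%, passed an adjusted p of 0.05. None of the listed genes did. Their mean log2 CPM was 4.90, 5.99, 4.15 and 6.03 in control tumors 1 to 4 and 6.91, 6.23, 8.57 and 9.17 in Ctsd-/- tumors, so the groups did not overlap and the summed level ran from 2195 to 8157 CPM in controls and from 5835 to 36724 CPM in Ctsd-/- tumors. No adipocyte marker was at 0 in any tumor. The highest named by rule were Aqp7, the glycerol channel of adipocytes (log2 FC 3.72, SE 0.74), Dgat2, which completes triglyceride synthesis (3.44, SE 0.71), the lipase gene Lipe (3.06, SE 0.73) and Lpl (3.01, SE 0.78).

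The thermogenic genes were therefore also expressed relative to these markers, as log2 CPM minus the mean log2 CPM of the 22 markers of the same tumor. On this scale Ucp1 remained higher in each Ctsd-/- tumor, at −7.86, −2.78, −5.52 and −6.75 against −9.83, −8.18, −8.50 and −8.47 in controls. Kcnk3 likewise lay at −5.10 to −3.56 against −7.75 to −5.28. Cidea overlapped, with means of −2.36 ± 1.05 and −2.41 ± 0.79 in Ctsd-/- and control tumors (SD, n = 4 each). Dio2 and Cox7a1 were lower in each Ctsd-/- tumor on this scale, with differences of group means of −3.24 and −2.71. The subtracted mean was itself 5.27 ± 0.91 in control and 7.72 ± 1.38 in Ctsd-/- tumors (SD, n = 4 each). A gene that does not rise with these markers is therefore lower on this scale. Ppargc1a, Prdm16, Cox8b and Elovl3 overlapped.

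Against Adipoq alone the picture for Ucp1 was less uniform. Per 1000 Adipoq counts there were 0, 1.36, 0.692 and 0.659 Ucp1 counts in controls and 1.22, 69.1, 11.3 and 4.95 in Ctsd-/- tumors. Ctsd-/- tumor 1 lay within the controls and tumor 2 stood highest. For Kcnk3 the ratio was 16.2, 11.8, 2.07 and 2.97 in controls and 8.78, 40.2, 36.9 and 27.7 in Ctsd-/- tumors, which also overlapped.

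**Figure D3:**
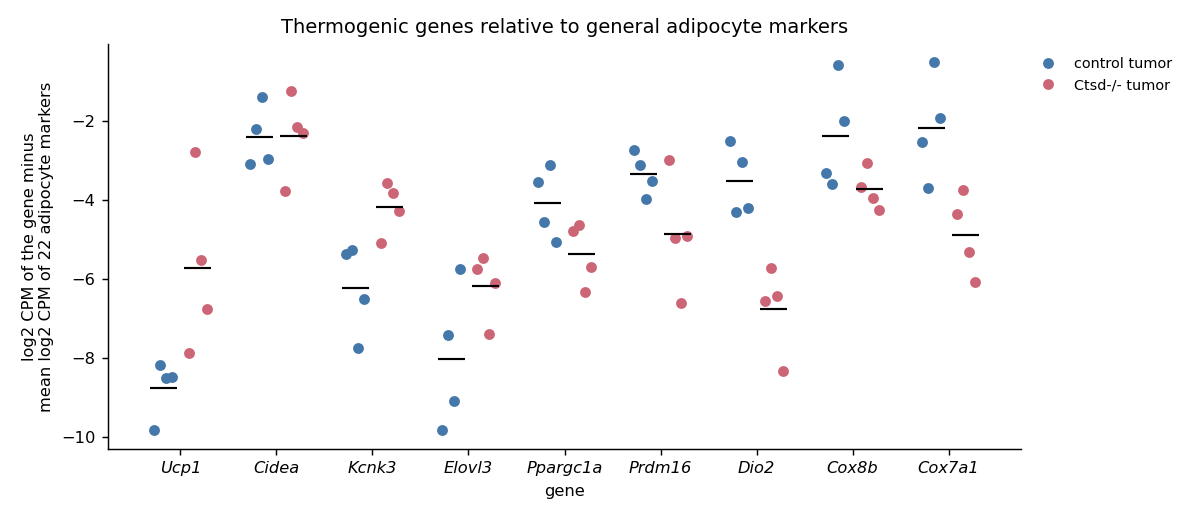
Log2 CPM of each gene minus the mean log2 CPM of 22 general adipocyte markers in the same tumor, for 4 control (blue) and 4 Ctsd-/- (red) tumors; black lines are group means. Ucp1 and Kcnk3 lie higher and Dio2 and Cox7a1 lower in all Ctsd-/- tumors, and the other 5 genes overlap. The subtracted mean is itself higher in Ctsd-/- tumors, so a gene that does not rise with the markers lies lower.

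In a fit with the adipocyte marker level as a covariate the log2 FC of Ucp1 was 5.77 (SE 1.29), that of Kcnk3 1.70 (SE 0.76), that of Cidea 0.86 (SE 0.76), that of Elovl3 1.04 (SE 1.23) and that of Ppargc1a 0.20 (SE 0.55). Prdm16 and Cox8b changed sign, to −0.30 (SE 0.95) and −0.32 (SE 0.84), and Dio2 was −1.60 (SE 0.77). The median over the 9 genes was 0.20. Without Ctsd-/- tumors 3 and 4, the 2 highest in adipocyte markers, a setting chosen after seeing the data, Ucp1 had a log2 FC of 6.03, Kcnk3 2.70, Cidea 1.33 and Ppargc1a 0.67. Ucp1 thus kept most of its difference under both settings. The second setting leaves Ctsd-/- tumors 1 and 2, at 0.486 and 10.9 CPM of Ucp1, so its value there rests mainly on tumor 2. The differences of Kcnk3, Cidea, Elovl3 and Ppargc1a were smaller under both settings, with Elovl3 at 2.39 under the second.

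The genes whose pattern was most like that of the 9 thermogenic genes were found by the Pearson correlation, over the 8 tumors, with the mean of their standardized log2 CPM. Among the 10 highest outside the list were Acaa1b (r = 0.99), 4430402I18Rik (0.99), Plin1 (0.99), Sult1a1 (0.98), Cidec (0.97), Nrg4 (0.97), Timp4 (0.97), Fxyd1 (0.97) and Amy1 (0.97). After the genotype means were removed these values were 0.94 to 0.98. Plin1 and Cidec code for lipid droplet proteins of adipocytes in general. The tumors of this measure share their sequencing runs with their genotype, and 8 points carry a wide error.

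Among the individual genes, Cidea followed the shared pattern most closely (r = 0.91), with Elovl3 (0.89) and Kcnk3 (0.88) next. Dio2 (−0.14) and Cox7a1 (0.21) had the lowest values, although their own levels are part of the mean. After the genotype means were removed they had r = 0.45 and 0.52, beside 0.44 for Prdm16 and 0.54 for Ucp1.

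Lists of related genes were read in the same fit. All counts below are at an unadjusted p under 0.1 and are to be read against the 8.44% of all genes tested that were higher and 8.27% that were lower. Of 20 genes of brown adipocyte identity and its regulators, 16 were tested, 7 were higher and 0 were lower, with a median log2 FC of 1.13. The β3-adrenergic receptor gene Adrb3 had 0.709, 4.77, 0.315 and 2.08 CPM in controls and 6.83, 4.87, 20.4 and 18.0 CPM in Ctsd-/- tumors (log2 FC 2.67, SE 0.79). The growth factor gene Nrg4, which brown fat secretes, had a log2 FC of 1.98 (SE 0.53), and Ebf2, which marks committed brown and beige precursors and adipocytes, 2.29 (SE 0.68). Zic1, which marks classical brown fat, was not tested, at 0.0152 CPM in controls and 0.00769 CPM in Ctsd-/- tumors. With the adipocyte covariate the median of this list was 0.01, and Adrb3 had a log2 FC of 0.36 and did not pass (unadjusted p = 0.582 in edgeR's test).

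Of 7 beige adipocyte markers 6 were tested and 2 were higher, with a median of 0.54 that turned to −0.84 with the adipocyte covariate and to −0.34 without the 2 tumors highest in adipocyte markers. They were Slc27a1, a fatty acid transporter that muscle and white fat also use (log2 FC 2.66, SE 0.54), and Shox2 (1.24, SE 0.61), which was named after its value was seen. Tmem26 had a log2 FC of 1.32 (SE 1.04) and did not pass, and Tbx1 was not tested. On the signaling side, 5 of 13 β-adrenergic and cAMP genes were higher and 0 lower, with a median of 0.33 that was −0.014 with the adipocyte covariate. Lists share genes, and Adrb3 is in this one and in the brown identity list. Adrb1, a receptor also used by heart, had a log2 FC of 0.08 (SE 0.32), which was 1.01 with the adipocyte covariate. Of 7 thyroid hormone signaling genes 6 were tested and 3 were higher, among them the receptor gene Thra (log2 FC 0.55, SE 0.25). With the adipocyte covariate Thra was at 0.45 and did not pass. It also did not pass without Ctsd-/- tumor 3 or without Ctsd-/- tumor 4 (unadjusted p = 0.118 and 0.102 in edgeR's test). Of 9 genes of creatine and calcium cycling, the routes of heat production that do not need Ucp1, 7 were tested and 1 was higher, a share near that of all genes. It was Pm20d1, which makes uncoupling lipids and was named after its value was seen, with 0.0151 to 0.178 CPM in controls and 0.323 to 2.82 CPM in Ctsd-/- tumors.

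Fatty acid oxidation, which feeds thermogenesis, was tested in full: 9 of 20 genes were higher and 0 lower, with a median of 0.37 that turned to −0.17 with the adipocyte covariate. Acsl1, which activates fatty acids, had a log2 FC of 2.45 (SE 0.58), and Cpt2, the inner membrane partner of the carnitine shuttle, 1.10 (SE 0.33). With the covariate these values were 0.04 and 0.01, and neither gene passed. Of 14 cytochrome c oxidase subunits 0 were higher and 2 lower, with a median of −0.37 that was 0.0055 without control tumor 4. This is the respiratory complex to which Cox8b and Cox7a1 belong. Among 25 paralogs of the thermogenic genes 22 were tested, 9 were higher and 3 lower, with a median of 0.52 that was 0.07 with the adipocyte covariate. The 3 lower ones are not reported here. The paralogs included Elovl6, which elongates long chain fatty acids in white fat too (log2 FC 2.63, SE 0.52), Ucp2 (0.68, SE 0.24), Ucp3 (3.01, SE 0.79) and Cidec. With the covariate Elovl6, Ucp2 and Ucp3 were at 0.68, 0.51 and 0.33, and none of them passed.

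**Figure D4:**
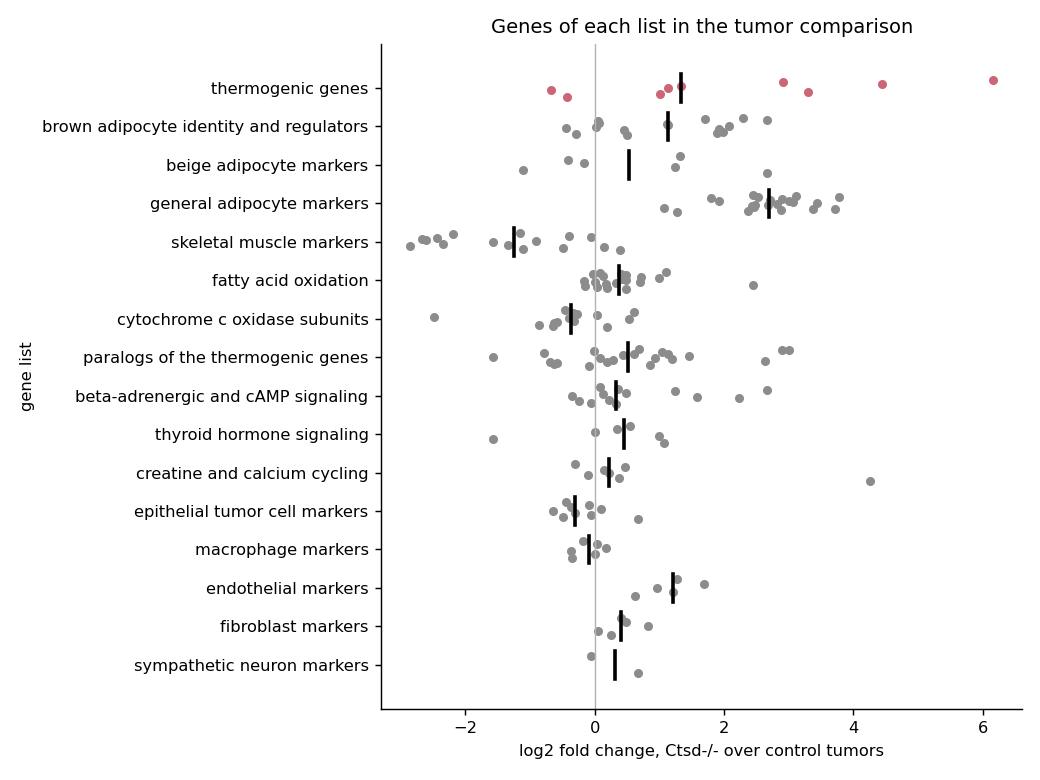
Log2 fold change of Ctsd-/- over control tumors for each tested gene of the thermogenic set (red) and of 15 other gene lists (grey), with black lines at list medians. The general adipocyte markers lie above 0 throughout with a median of 2.70, the thermogenic genes spread from −0.68 to 6.17, and the cytochrome c oxidase subunits and muscle markers have medians below 0.

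Markers of other cell types varied as follows. Of 5 endothelial markers 4 were higher, with a median of 1.22. That median was −0.22 with the adipocyte covariate and 0.20 without the 2 tumors highest in adipocyte markers, and with a replicate block the markers Pecam1 and Cdh5 no longer passed (unadjusted p = 0.110 and 0.108 in edgeR's test). Of 5 fibroblast markers 1 was higher, with a median of 0.40 that turned to −0.40 with the adipocyte covariate. None of the 9 epithelial and 6 macrophage markers passed the threshold, with medians of −0.30 and −0.09. Of the 16 skeletal muscle markers tested 1 was lower, Mylpf, a myosin light chain named after its value was seen. The median of that list was −1.25, and it was 2.73 without control tumor 4. Of 4 sympathetic neuron markers 2 were tested, and neither passed the threshold. Th and Dbh, the enzymes of noradrenaline synthesis, were too low to be tested and averaged 0.0599 and 0.0459 CPM in Ctsd-/- tumors. The part of vessels and muscle in the thermogenic values was not tested beyond the muscle covariate, under which the median of the 9 genes was 1.34.

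The cultured tumor cells were used to see whether tumor cells express these genes without fat around them. Their defining adipocyte markers were at or near 0: Adipoq was at most 0.0266 CPM and Plin1 was at 0 in all 12 samples. Other genes of the fat lists were read in cells. General adipocyte markers summed to 104 to 206 CPM in cells and 2195 to 36724 CPM in tumors. The brown adipocyte identity list summed to 67.3 to 113 CPM in cells and 147 to 306 CPM in tumors. Beige markers summed to 40.1 to 216 CPM in cells and 80.2 to 804 CPM in tumors. In 1% FCS, Ctsd was at 2775 ± 1468 CPM in Ctsd+/+ and 155 ± 32.9 CPM in Ctsd-/- cells, and in 1% FCS LT it was at 1730 ± 145 and 129 ± 19.4 CPM (SD, n = 3 each). The 1% FCS Ctsd+/+ cells stood apart in their markers, with 128 to 171 CPM of Epcam against 648 to 858 CPM in the other 9 samples, and with 531 to 2320 CPM of Col1a1 against 0.533 to 5.96 CPM. Dcn, the other defining fibroblast marker, was at most 1.86 CPM in them, and 1 to 2 genes of the fibroblast list had 0 reads. That list summed to 625 to 2613 CPM in them, most of it Col1a1. The mean log2 CPM of the fibroblast genes that passed the filter in cells ranged from 6.41 to 8.02 in these 3 replicates. It ranged from −1.06 to 0.57 in the other 9 samples.

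Of the 10 genes, 6 did not pass the filter in cells. Cox8b had 0 reads in all 12 samples, which allows at most 0.0916 CPM by counting error in the smallest library (3 counts). Kcnk3 had 0 to 5 reads, Elovl3 0 to 3, Prdm16 0 to 4, Ucp1 0 to 10 and Cidea 0 to 19. Ucp1 averaged 0.207 ± 0.0377 and 0.214 ± 0.0603 CPM in Ctsd-/- cells of 1% FCS and 1% FCS LT (SD, n = 3 each). In Ctsd+/+ cells it averaged 0.0289 ± 0.00238 and 0.0871 ± 0.0809 CPM, and this difference at a few reads was not tested. Control tumors had 0 to 0.185 CPM of Ucp1, and Ctsd-/- tumors had 0.486 to 10.9 CPM. Kcnk3, at up to 0.120 CPM in cells, reached 29.9 CPM in tumors, and Cidea, at up to 0.482 CPM, reached 118 CPM.

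**Figure D5:**
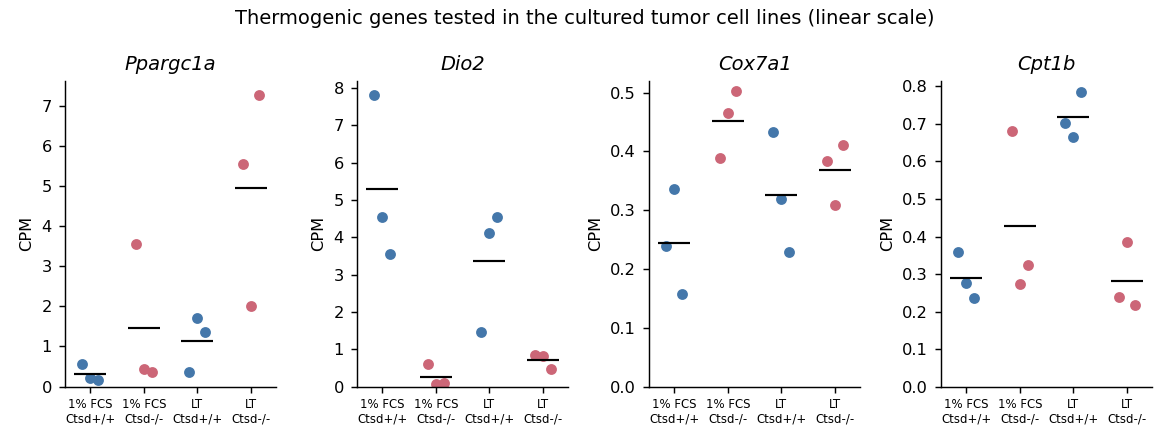
CPM of the 4 thermogenic genes tested in cells, in 3 replicates of each of the Ctsd+/+ (blue) and Ctsd-/- (red) groups in 1% FCS and 1% FCS LT, on linear axes that start at 0, with black lines at group means. Dio2 is low in Ctsd-/- cells at both times, Ppargc1a varies widely within groups, and Cox7a1 and Cpt1b stay below 0.8 CPM.

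Dio2, Ppargc1a, Cox7a1 and Cpt1b were tested in cells. Dio2 was called lower in Ctsd-/- cells at both culture times. Its CPM in 1% FCS was 7.80, 4.55 and 3.56 for Ctsd+/+ and 0.608, 0.0822 and 0.0887 for Ctsd-/- replicates, without overlap. It fell by 4.29 on the log2 scale in Ctsd-/- cells (SE 0.70, adjusted p = 0.000386), and 14.6% of the 15178 genes tested were called lower in this comparison (adjusted p below 0.05 with a log2 change beyond 1) and 10.3% higher. The call held in 11 of 11 alternatives (adjusted p from 3.01e-10 to 0.0197). In 1% FCS LT the levels were 1.46, 4.10 and 4.54 CPM in Ctsd+/+ and 0.838, 0.824 and 0.460 CPM in Ctsd-/- cells, again without overlap. There the difference was −2.25 (SE 0.63, adjusted p = 0.0137), where 10.1% of genes were called lower and 9.24% higher. It held in 9 of 11 alternatives, with adjusted p from 0.000901 to 0.120, and was lost without replicate 2 (adjusted p = 0.120) and without replicate 3 (adjusted p = 0.105). In the 1% FCS comparison the Ctsd+/+ samples were also those with low Epcam, high Col1a1 and a high mean of the tested fibroblast genes. The part of this in the Dio2 call was not tested. In 1% FCS LT the mean log2 CPM of these fibroblast genes was as low in Ctsd+/+ as in Ctsd-/- cells, at −0.46 ± 0.80 against 0.17 ± 0.38 (SD, n = 3 each).

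Ppargc1a varied strongly between replicates. Its CPM was 0.570, 0.214 and 0.157 in 1% FCS Ctsd+/+ cells and 3.55, 0.438 and 0.355 in Ctsd-/- cells, and replicate 1 of both genotypes came from a different sequencing run than replicates 2 and 3. The log2 difference was 2.22 (SE 0.96, adjusted p = 0.0742). In 1% FCS LT it was 0.351, 1.70 and 1.37 CPM in Ctsd+/+ and 5.55, 2.01 and 7.26 CPM in Ctsd-/- cells, a difference of 2.11 (SE 0.86, adjusted p = 0.0709). Neither passed the threshold. At 1% FCS LT all Ctsd-/- values lay above all Ctsd+/+ values, and in 1% FCS the genotypes overlapped. With DESeq2 both were called (adjusted p = 0.0252 and 0.0306), and over the alternatives the adjusted p ranged from 0.0252 to 0.377 in 1% FCS and from 0.0214 to 0.210 in 1% FCS LT.

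Cpt1b was low, at 0.218 to 0.786 CPM. At 1% FCS LT it averaged 0.718 ± 0.0615 CPM with Ctsd and 0.281 ± 0.0917 CPM without it (SD, n = 3 each), a log2 difference of −1.35 (SE 0.39, adjusted p = 0.0173) that held in 7 of 10 alternatives (adjusted p from 0.0136 to 0.154). It was lost within the shared run (log2 difference −1.13, adjusted p = 0.0578), without replicate 2 (−1.70, adjusted p = 0.0605) and without replicate 3 (−1.14, adjusted p = 0.154). In Ctsd+/+ cells it was 1.30 higher in 1% FCS LT than in 1% FCS (SE 0.40, adjusted p = 0.0183), a comparison in which 11% of genes were called higher and 12.3% lower. That call held in 8 of 10 alternatives (adjusted p from 0.0167 to 0.157). It was lost without replicate 2 (1.33, adjusted p = 0.0996) and without replicate 3 (1.09, adjusted p = 0.157). The genotype effect on Cpt1b differed between the culture times (interaction −1.92, SE 0.57, adjusted p = 0.0242), where 8.12% of genes were called lower and 11% higher. That call held in 5 of 10 alternatives (adjusted p from 0.0239 to 0.158) and was lost without replicate 1, 2 or 3, within the shared run and with no filter. Cox7a1, at 0.157 to 0.503 CPM, differed by 0.89 (SE 0.37, adjusted p = 0.0669) and 0.17 (SE 0.36, adjusted p = 0.733) between genotypes in 1% FCS and 1% FCS LT. Between culture times none of the 4 genes passed in Ctsd-/- cells in the fit of all 12 samples, where 1.11% of genes were called higher and 0.369% lower. The log2 differences there were 1.75 (SE 0.84, adjusted p = 0.304) for Ppargc1a, 1.39 (SE 0.70, adjusted p = 0.329) for Dio2, −0.29 (SE 0.35, adjusted p = 0.716) for Cox7a1 and −0.61 (SE 0.40, adjusted p = 0.468) for Cpt1b.

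Cells and tumors were counted and normalized separately, so their levels are set side by side without a test. Dio2 had the lower mean in Ctsd-/- samples of both materials, with overlap between genotypes in tumors. It reached 7.80 CPM in cells and 5.25 CPM in tumors. Ppargc1a reached 7.26 CPM in cells and 11.1 CPM in tumors.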

How the data were processed

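Total RNA of 8 tumors and 12 cell samples was sequenced. Per the labels and the methods of the study, STAR aligned trimmed reads to the mouse genome, and the authors deposited its gene counts as they were, without normalization, both regardless of strand and for each strand. The annotation release is not given in the sources used here. Reads that map to several places or overlap several genes are not in these counts. Symbols came from GENCODE M21, which held 45143 of 45706 identifiers. Counts regardless of strand were used in tumors, where 52.8% to 53.7% of strand-assigned reads lay opposite to the gene, and counts of the opposite strand in cells, where 97.1% to 97.3% did.

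Counts were analysed with edgeR 4.0.16 in R 4.3.3 (filterByExpr, TMM, two-sided quasi-likelihood F-test, Benjamini-Hochberg adjustment over all 18617 genes in tumors and 15178 in cells). Tumors were compared with 4 against 4 libraries at an unadjusted p of 0.1, the threshold of the study, and all 12 cell samples were fitted together with calls at an adjusted p below 0.05 and a log2 FC beyond 1 in size. Log2 CPM used a prior count of 2. A list is described by its counts and its median. The 10 genes and all gene lists were chosen with earlier results of these data known. Named from each other list were up to 4 genes of greatest absolute log2 FC, provided that they had an unadjusted p under 0.1, an average log2 CPM above 0 and genotypes that did not overlap, and the first 2 genes of the list. Paralogs of a described gene were named too. Not all of these are printed, and some named by the rule are not reported here. Counting error alone limits a 0 (3 counts).

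Replicate numbers did not pair the tumors (correlation of same-numbered tumors from −0.303 to −0.00755). In cells, same-numbered samples of the genotypes correlated at 0.362, 0.1 and 0.299 in 1% FCS, where replicate 1 of both had its own run, and at 0.07, 0.00181 and 0.119 in 1% FCS LT, where replicate 3 of both had its own. Not every pair exceeded 0.1, and the fit without the block was kept. Also, no 2 replicates were alike enough to be 1 library (lowest chi-square per gene 16.5). The fits were tested on simulated data. Alternatives were DESeq2 1.42.0, limma-voom (limma 3.58.1), other size factors, filters and strand forms, a replicate block, marker covariates, the shared run and leaving out samples.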

Additional observations from a re-analysis of the deposited data

Results flagged for a closer look

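For the β-adrenergic and cAMP signaling genes, the mean log2 CPM of control tumor 2 was 4.55, far from the other 3 control tumors by Dixon's criterion. With 52 groups of 4 tumors examined, chance alone gives such a value in about 1 in 20 groups.

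The genotype effect on Cpt1b differed between culture times in cells. The difference of the log2 effects, 1% FCS LT minus 1% FCS, was −1.92 (interaction in edgeR's quasi-likelihood test, SE 0.57, adjusted p = 0.0242), where 8.12% of genes were called lower and 11% higher. Ctsd-/- cells were at 0.427 ± 0.222 against 0.290 ± 0.0635 CPM in 1% FCS and at 0.281 ± 0.0917 against 0.718 ± 0.0615 CPM in 1% FCS LT (SD, n = 3 each). The call held in 5 of 10 alternatives, with adjusted p from 0.0239 to 0.158, and it was lost without replicate 1, 2 or 3, within the shared run (−1.36, adjusted p = 0.133) and with no filter (−1.90, adjusted p = 0.0547). The exon overlap of Cpt1b with its read-through neighbour applies here too. The same interaction for Dio2 was 2.04 (SE 0.91, adjusted p = 0.112), and within the shared sequencing run it was 3.77 (adjusted p = 0.0110).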

How the results depend on the processing

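The 9 thermogenic genes kept their direction under all 19 alternatives in tumors, except Prdm16 and Cox8b with the adipocyte covariate and Cox7a1 without the 2 tumors highest in muscle markers. Their median log2 FC of 1.33 was 0.20 with the adipocyte covariate and 0.81 to 1.55 without 1 tumor, lowest without Ctsd-/- tumor 4. Without 1 tumor, 4 to 5 genes had all Ctsd-/- tumors above all control tumors. The share of all genes with that pattern is not reported here for these settings, so nothing is read from this count. In tumors 1572 genes were higher and 1540 lower at an unadjusted p under 0.1, and 59 genes of the other lists were higher. These counts were 670, 550 and 4 with the adipocyte covariate, 2877 and 2398 with the muscle covariate, 2703 and 2734 with no filter, 510, 595 and 20 without the 2 tumors highest in adipocyte markers, and 980 to 2156, 827 to 2309 and 41 to 72 without 1 tumor. With the replicate block 711 genes were lower in tumors and 1105 higher. In cells, where replicate numbers go in part with the sequencing run, the block changed none of the 5 calls of thermogenic genes.

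Some named genes changed sign. With the adipocyte covariate the log2 FC was −0.094 for Ebf2, −0.13 for Nrg4, −0.22 for Pecam1, −0.040 for Adipoq, −0.16 for Lpl and −0.13 for Plin1. Acta1 was 1.81 with the muscle covariate and 2.50 without the 2 tumors highest in muscle markers. Without 1 tumor Acta1 ranged from −2.15 to 3.49 and Ckm from −5.44 to 3.67, positive without control tumor 4. The causes were not tested.

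In cells the 4 thermogenic genes tested gave 5 calls over the 5 comparisons. Of all genes, 10.3% were called higher and 14.6% lower between genotypes in 1% FCS, and 9.24% and 10.1% in 1% FCS LT. Between culture times these shares were 11% and 12.3% in Ctsd+/+ and 1.11% and 0.369% in Ctsd-/- cells, and 11% and 8.12% for the interaction. The thermogenic genes gave 2 calls with an average log2 CPM above 1, 8 with no filter and 1 to 8 without 1 replicate. Nothing is read from these counts. Calls over all genes between genotypes were 3790 in 1% FCS (2426 with an average log2 CPM above 1, 2949 to 3616 without 1 replicate) and 2939 in 1% FCS LT (1862, 1960 to 2810). Between culture times they were 3545 in Ctsd+/+ cells (2295, 2730 to 3520) and 225 in Ctsd-/- cells (502 with DESeq2, 475 with no filter, 484 within the shared run, 1 to 157 without 1 replicate, lowest without replicate 2). The interaction gave 2906 and 1461 to 2692 without 1 replicate. Within the shared run and without replicate 1 Dio2 was also called between culture times in Ctsd-/- cells (log2 FC 3.23 and 2.86), and without replicate 1 so was Ppargc1a in Ctsd-/- and Ctsd+/+ cells (3.53 and 3.04). Genes at a few reads, Ucp1 in controls and 6 genes in cells, are limited by depth.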
